A study of Sus scrofa with 12 samples.

Results

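The comparison covers 6 of the 12 RNA-seq libraries of a pig study: 3 from the parthenogenetic embryonic stem cell (ESC) line 7, here ESC7, and 3 from ESC line 11, here ESC11, whose embryo came from in vitro fertilisation. A row of the deposited expression table entered if its status was KNOWN or NEW_AS, and it was tested if its value was at least 1 FPKM in at least 3 of the 6 libraries. FPKM counts the sequenced fragments of a gene, divided by its transcript length and by the number of fragments in the library. Of 30012 rows, 20920 carried these marks, and 12397 rows spanning at least 300 bp and 14 shorter rows were tested. What NEW_AS stands for is not given in the sources used here; 93.6% of all NEW_AS rows carry an Ensembl gene identifier, as do 99.9% of KNOWN rows, and they are read here as the genes they are named for. ESC7 grew from an egg activated without sperm, so its genome is maternal only, while ESC11 carries a maternal and a paternal genome. Each origin is represented here by 1 line, so origin and line cannot be told apart. Both lines grew on feeder cells in the same serum replacement medium with 20 ng/mL FGF2, 5 ng/mL ActA, 1.5 µM CH and 2.5 µM IWR-1, and received 10 µM Y-27632 around each passage. Cells positive for the surface antigen SSEA1 were sorted on magnetic columns before RNA was taken. A second parthenogenetic line, ESC3, and fibroblasts of a fetus at day 30, taken at passage 6, serve as reference, with 3 libraries each. The labels do not say whether a line's 3 libraries came from separate cultures, so the p-values rest on a spread that may be technical.

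Genomic imprinting marks some mammalian genes in the egg or the sperm, so that the embryo later reads them from 1 parental copy only. A cell with maternal genomes alone lacks the copy from which paternally expressed genes are read. Embryos without a paternal genome do not develop to term in mammals, but stem cell lines can be derived from them, and imprints can also be lost or changed in culture.

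The 6 libraries fell into their 2 lines. Across tested rows, log2(FPKM + 1) correlated at 0.990 to 0.994 between libraries of a line and at 0.973 to 0.975 between lines, as a description across genes. Absolute depth is unknown, and steps in the low values place the ESC7 libraries at 0.86 to 0.93 and the other ESC11 libraries at 0.96 and 1.22 of the depth of ESC11 library 1. Rows under 300 bp held 72.6% to 75.5% of the summed FPKM in ESC7 and 54.8% to 60.7% in ESC11. Both lines carried the markers of their labelled cell type. The summed FPKM of POU5F1, SOX2, NANOG, LIN28A and SALL4 was 1694 to 1792 in ESC7, 1823 to 1887 in ESC11 and at most 0.152 in fibroblasts. The 7 measured fibroblast markers summed to 69.8 to 81.0 in ESC7 and 65.0 to 69.2 in ESC11, against 15912 to 16087 in fibroblasts, and 0 of the 3 tested were called with limma. The 3 smooth muscle markers summed to 22.3 to 23.1 in ESC7 and to at most 18.3 in ESC11, without overlap, against 3552 to 3823 in fibroblasts. Markers of mesoderm, trophectoderm and of blood and endothelium each summed to at most 1.11 in these 6 libraries. The 5 endoderm markers summed to 2.61 to 2.89 in ESC7 and 1.17 to 1.28 in ESC11. The 3 measured neural markers summed to 47.5 to 54.8 in ESC7 and 139 to 149 in ESC11. In both classes the lines did not overlap.

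ESC7 and ESC11 differed strongly at a small set of genes and little elsewhere. A row was called when its Benjamini-Hochberg adjusted p from limma was under 0.05 and its log2(FPKM + 1) difference, ESC7 minus ESC11, was at least 1 in size. Of the 12397 tested rows, 205 were called (1.65%), 126 of them higher in ESC7 (1.02%) and 79 lower (0.637%). The median difference over all tested rows was 0.03, and 91.4% of rows differed by under 0.5. Of the called rows, 160 differed by 1 to 2, 45 by at least 2, and 7 by at least 4. In all 205 the ESC7 libraries lay on 1 side of the ESC11 libraries, which also holds for 48.5% of all tested rows. Many of these genes were near absent in 1 line: the ESC11 mean was under 1 FPKM for 51 of the rows called higher, and the ESC7 mean for 39 of those called lower. A row at or near 0 in 1 line could pass the filter on low values only through the other line, which fixed its direction. By adjusted p alone 32.0% of all rows passed, 19.3% higher and 12.7% lower, and 43.7% had an unadjusted p under 0.05; counts for gene lists below are to be read against these shares. Differences are on the log2(FPKM + 1) scale, which understates the change of low genes. Most of the summed FPKM of the table lies on rows under 300 bp, as given above. The tested rows alone summed to 579975 to 650663 FPKM in ESC7 and 551824 to 591552 in ESC11. Scaling every library to the same sum over the whole table would move the median of all rows to -0.92 and turn most calls to lower (4670 lower, 38 higher). Directions below are therefore those of the deposited scale. Quantile normalization and median-ratio scaling left the direction and the call of each named gene as on that scale.

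**Figure D1:**
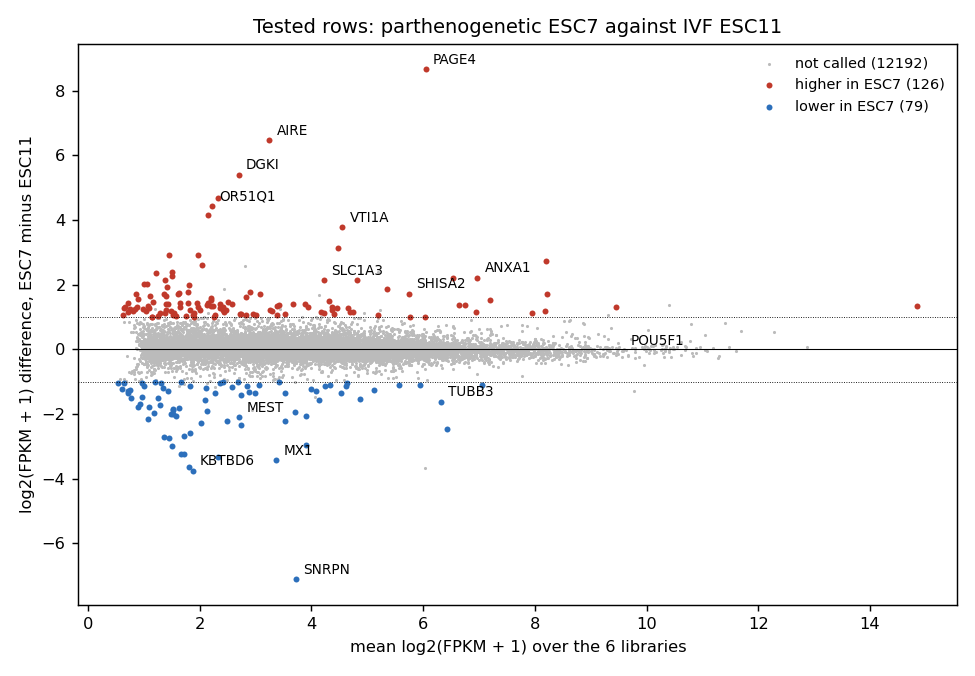
Each point is 1 of the 12397 tested rows, with the mean log2(FPKM + 1) of the 6 libraries on the horizontal axis and the difference, ESC7 minus ESC11, on the vertical axis; dotted lines mark a difference of 1 either way. Red and blue points are the 126 rows called higher and the 79 called lower on the deposited scale, with PAGE4 (8.66) and SNRPN (-7.11) at the extremes and most rows near 0.

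The paternally expressed imprinted genes held the lowest value of the whole comparison. SNRPN, which encodes a small nuclear ribonucleoprotein from the imprinted Prader-Willi region (unplaced scaffold GL896379.1, 22821 to 48725 on the build of the deposited table, Sscrofa10.2), was at 0.144, 0.0319 and 0.202 FPKM in the ESC7 libraries and at 159, 153 and 150 FPKM in those of ESC11. The ESC11 libraries were near 150 or above and all ESC7 libraries were close to 0, a log2 difference of -7.11 ± 0.07 (SE, adjusted p = 2.12e-08). SNRPB, a near relative of SNRPN that is not imprinted, was at 338 ± 39.6 FPKM in ESC7 and 385 ± 34.5 in ESC11 (SD, n = 3 each; adjusted p = 0.185 from limma), and its libraries overlapped between the lines. SGCE, the epsilon-sarcoglycan gene of the PEG10 region, was listed at 0 in all 3 ESC7 libraries and at 11.1, 18.2 and 7.11 FPKM in ESC11 (adjusted p = 2.15e-04), and its second row on chromosome 9 was lower as well.

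Of 26 genes listed as paternally expressed in mammals, 19 were in the table and 14 passed the filter on low values. Of these, 9 were called lower in ESC7 (0.637% of all rows), 0 were called higher (1.02%) and 5 were not called. The median difference of the 14 was -2.04, against 0.03 over all rows. SNRPN, SGCE, MAGEL2, MKRN3, NAP1L5, PLAGL1 and PEG3 averaged under 1 FPKM in ESC7 and passed the filter through ESC11, which set their direction. The count and the median are thus partly set by the filter. Among the called members, MEST and NNAT were above 1 FPKM in every ESC7 library. MAGEL2, a ubiquitin ligase regulator also from the Prader-Willi region, was at 0.463, 0.742 and 0.583 FPKM in ESC7 and 15.4, 15.6 and 13.6 in ESC11, a difference of -3.32 ± 0.09 (SE, adjusted p = 2.25e-06). MKRN3, a ring finger gene beside it on chromosome 1, had an ESC7 mean of 0.0156 and an ESC11 mean of 1.85 FPKM. MEST, a hydrolase-like gene known as a growth-related imprinted gene (chromosome 18, 19327494 to 19347714), was at 2.14, 2.07 and 2.26 FPKM in ESC7 while the ESC11 libraries averaged 12.5 ± 0.649 FPKM (SD, n = 3), the lowest at 11.8. The ESC11 mean was 5.78 times that of ESC7, a difference of -2.09 ± 0.06 (SE, adjusted p = 3.33e-06). The other called members were NAP1L5 (0.0555 against 6.01 FPKM), the zinc finger regulator PLAGL1 (0.446 against 7.73), the proteolipid gene NNAT (1.59 against 11.1) and the zinc finger gene PEG3 (0.406 against 4.58), means of 3 libraries each. In none of these did a library of one line reach the range of the other.

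The other 5 tested members were not called. DIRAS3, a small GTPase gene, was at 0.146 ± 0.0947 FPKM in ESC7 and 1.26 ± 0.0912 in ESC11 (SD), a difference of -0.98 that lies just under the minimum. IMPACT, a regulator of translation, had 27.3 ± 2.30 and 26.8 ± 1.17 FPKM (SD), and INPP5F, an inositol phosphatase gene, 19.9 ± 0.676 and 18.2 ± 0.203. L3MBTL1 (difference 0.41) and ZDBF2 (0.49, adjusted p = 7.24e-04 from limma) lay toward ESC7. IMPACT, INPP5F and L3MBTL1 are imprinted in some mammals and tissues only. Of the members below the filter, IGF2 was listed at 0 in all 12 libraries, DLK1 was at most 0.0649 FPKM in the 6 ESC7 and ESC11 libraries, and RTL1 and DIO3 were at low values in both lines.

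**Figure D2:**
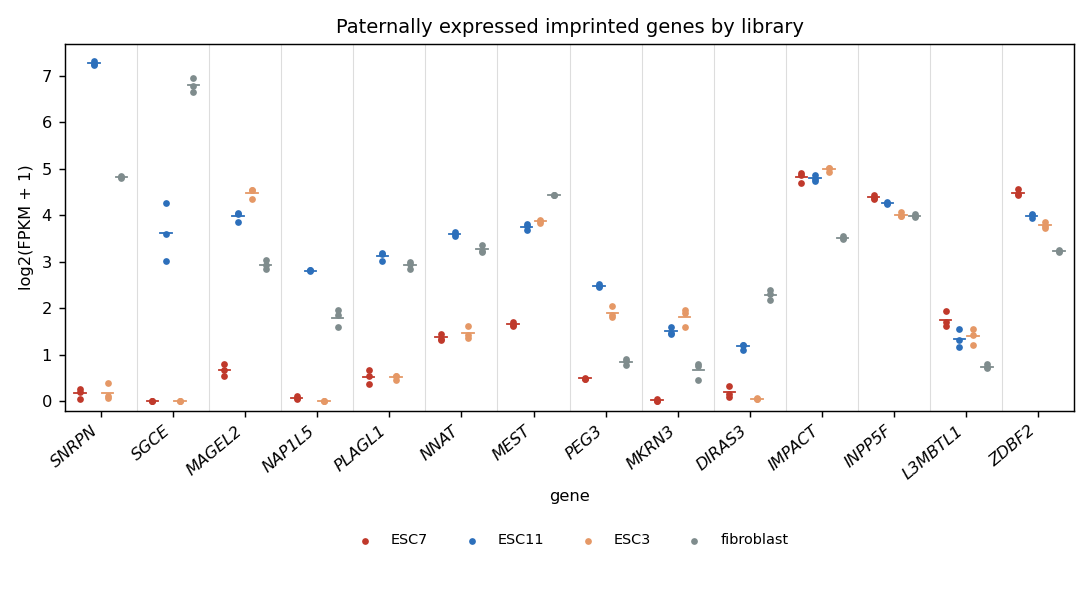
Values of the 14 tested paternally expressed genes, with log2(FPKM + 1) on the vertical axis, a point for each library, a bar for the mean of 3 libraries, and colours for the 4 groups. ESC7 lies near 0 for SNRPN, SGCE, NAP1L5 and MKRN3 where ESC11 does not, while ESC3 stands with ESC11 for MAGEL2, MEST and MKRN3 and with ESC7 for SNRPN and SGCE.

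The second parthenogenetic line did not share all of these levels. MAGEL2 was at 19.3, 22.5 and 22.3 FPKM in ESC3, above every ESC11 library, and ESC7 was lower than ESC3 by 3.81 ± 0.09 on the log2 scale (SE, adjusted p = 1.92e-08 from limma over the 3 ESC lines). MKRN3 was at 2.56 ± 0.463 FPKM in ESC3 (SD), and ESC7 minus ESC3 was -1.80. MEST was at 13.7 ± 0.306 FPKM in ESC3 (SD), close to ESC11, and ESC7 minus ESC3 was -2.22 (adjusted p = 1.92e-08). PEG3 lay between, at 2.75 ± 0.336 FPKM in ESC3 (SD), with ESC7 lower by 1.41. For SNRPN, PLAGL1, NNAT and NAP1L5 the ESC7 minus ESC3 difference was -0.02, 0.02, -0.09 and 0.08, and none was called. Over all rows, 304 were called between ESC7 and ESC3 (2.45%) and 147 between ESC3 and ESC11 (1.19%); these comparisons share their libraries with the main one.

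Maternally expressed imprinted genes showed no called difference: 0 of 10 tested members were called with limma, and their median was 0.05. Of the 10, 3 had an unadjusted p under 0.05 (43.7% of all rows). By adjusted p alone 2 lay higher and 1 lower (19.3% and 12.7% of all rows). GNAS, the stimulatory G protein subunit, was at 898 ± 39.1 and 866 ± 22.6 FPKM in ESC7 and ESC11 (SD), and UBE3A, the ubiquitin ligase of the Angelman region, at 45.2 ± 1.27 and 44.9 ± 0.350. IGF2R, which clears IGF2 from the cell surface, had means of 139 and 110 FPKM, a difference of 0.33 (adjusted p = 0.0388). CD81, a tetraspanin, had the largest difference of the list, 0.79 (adjusted p = 0.015), with 2369 ± 516 and 1356 ± 167 FPKM (SD).

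The genes that keep or set imprints and the Polycomb repressive complex 2 genes held 0 called of 11 and 0 of 11, with an unadjusted limma p under 0.05 for 9 and 5. Of the first list, 6 had an adjusted p under 0.05 from limma (2 toward ESC7, 4 toward ESC11), and of the second 4 (1 and 3), against 32.0% of all tested rows. UHRF1, which brings the maintenance methyltransferase to DNA, was at 53.8 ± 5.50 FPKM in ESC7 and 73.7 ± 0.983 in ESC11 (SD), a difference of -0.45. DNMT3B was at 806 ± 23.6 and 966 ± 4.30 (SD), and DNMT3A, the other de novo methyltransferase, at 58.2 ± 1.57 and 43.5 ± 0.110, so they lay in opposite directions at -0.26 and 0.41. TET2, an enzyme that oxidises methylated cytosine, had a difference of 0.44. The histone-binding subunit RBBP7 had 164 ± 4.55 FPKM in ESC7 and 291 ± 3.06 in ESC11 (SD), a difference of -0.83 (adjusted p = 2.67e-05) that did not reach the minimum.

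The gene with the largest difference in the other direction was PAGE4, an X-linked member of the cancer/testis gene family (chromosome X, 48522892 to 48530860). It was at 1536, 1385 and 1100 FPKM in ESC7 and at 1.42, 2.86 and 2.82 FPKM in ESC11, a difference of 8.66 ± 0.20 (SE, adjusted p = 1.31e-06). All ESC7 libraries were above 1000 and all ESC11 libraries under 3, and ESC3 was at 724 ± 46.8 FPKM (SD). AIRE, known as the regulator that lets thymic cells show tissue antigens, was at 141, 49.2 and 100 FPKM in ESC7 and at 0.0253, 0 and 0 in ESC11, a difference of 6.47 ± 0.34 (SE, adjusted p = 4.18e-05). The ESC7 libraries differed widely among themselves, yet each stood far above ESC11, and ESC3 was at 0.0114 FPKM. The fibroblast libraries were at 27.1, 0.0297 and 9.12 FPKM, so this row also varied widely between libraries of that group.

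Several further genes were present in ESC7 and listed at or near 0 in ESC11. The row named DGKI, a diacylglycerol kinase, was at 57.1, 29.3 and 41.5 FPKM in ESC7 and listed at 0 in every ESC11 library (adjusted p = 1.08e-05). The same row was listed at 0, 0 and 53.9 FPKM in the 3 ESC3 libraries, so its zeros also differed between libraries of 1 line. IGSF5, a junction protein of the immunoglobulin family, was at 6.30, 6.55 and 6.70 FPKM and listed at 0 in ESC11 (adjusted p = 1.31e-06). The mucin row MUCAP_PIG on chromosome 5 was at 28.3, 21.2 and 24.4 FPKM in ESC7 and listed at 0 in ESC11 (adjusted p = 1.31e-06). The row named OR51Q1, an odorant receptor, on chromosome 9 was at 20.8 ± 1.70 FPKM in ESC7 (SD), with ESC11 at most 0.0101. This row spans 172077 bp and carries no Ensembl identifier. BMPER, a secreted BMP regulator, was at 5.50 ± 0.443 and 0.236 ± 0.0815 FPKM (SD), and CLDN23, a claudin, at 5.26 ± 1.04 and 0.296 ± 0.205.

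VTI1A, a SNARE of vesicle fusion, was at 93.9, 78.2 and 86.6 FPKM in ESC7 and 3.84, 5.81 and 6.80 in ESC11, a difference of 3.77 ± 0.17 (SE, adjusted p = 2.18e-05). ESC3 was higher still at 240 ± 36.0 FPKM (SD), so ESC7 lay between the other ESC lines. GAS2, a cytoskeleton-linked protein, was at 251, 146 and 215 FPKM in ESC7 and 45.0, 35.0 and 48.6 in ESC11, a difference of 2.20 ± 0.21 (SE, adjusted p = 5.20e-04). It was no longer called when the spread was taken from 9 ESC libraries (adjusted p = 0.061) or from all 12 (adjusted p = 0.103); its ESC3 libraries averaged 33.6 ± 31.4 FPKM (SD).

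**Figure D3:**
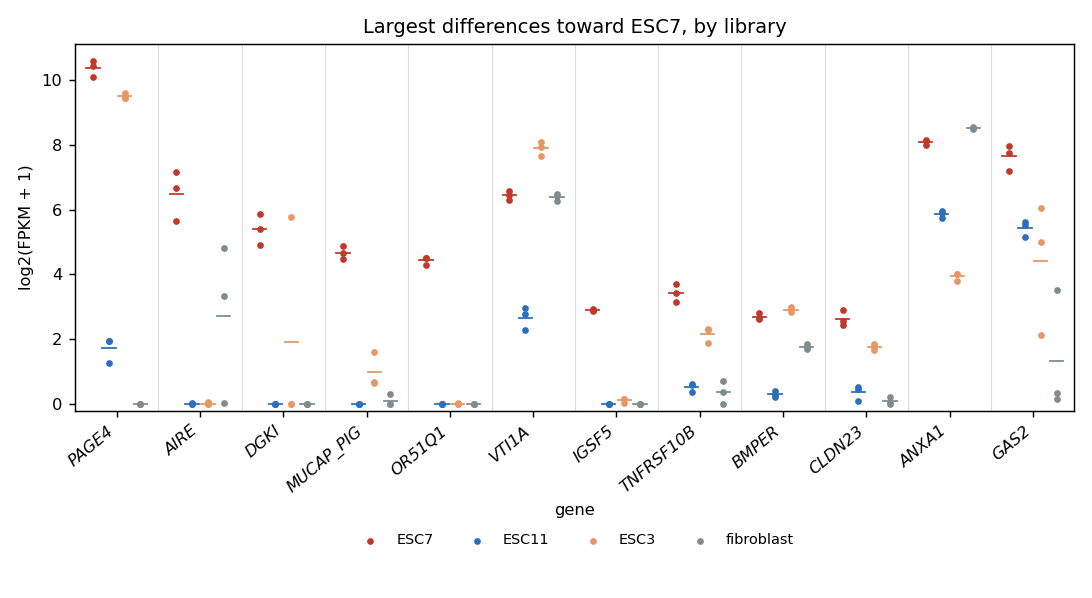
Values of the 12 named genes with the largest differences toward ESC7, with log2(FPKM + 1) on the vertical axis, a point for each library, a bar for the mean of 3 libraries and colours for the 4 groups. In each gene the 3 ESC7 points stand above the 3 ESC11 points, and ESC3 ranges from near 0 (AIRE, OR51Q1) to above ESC7 (VTI1A).

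ANXA1, annexin A1, a calcium-dependent membrane-binding protein known from inflammation and epithelia (chromosome 1, 252989614 to 253007803), was at 281, 252 and 275 FPKM in ESC7 and 52.1, 58.6 and 60.8 in ESC11. The groups did not overlap and the ratio of means was 4.72, a log2 difference of 2.22 ± 0.07 (SE, adjusted p = 3.45e-06). ESC3 was lower than both at 14.4 ± 1.22 FPKM (SD), and fibroblasts were at 369 ± 8.03. Of 9 tested annexins ANXA1 alone was called; all 9 differences were above 0 on the deposited scale, from 0.08 to 2.22, and 7 passed the adjusted p alone (4 after median-ratio scaling), where 19.3% of all rows passed it toward ESC7. ANXA2, the most abundant, was at 280 ± 1.79 and 252 ± 3.71 FPKM (SD), ANXA4 at 21.1 ± 0.332 and 15.9 ± 0.266, and ANXA9 at 1.90 ± 0.130 and 0.881 ± 0.192. Fibroblasts had more ANXA2 (1804 FPKM) than either line, and the fibroblast and smooth muscle marker sums were higher in ESC7 than in ESC11, as given above. In ESC3, which had less ANXA1 than either line, these sums were 80.1 to 105 and 24.8 to 26.4. Of 8 tested smooth muscle and contractile genes 0 were called with limma and 5 had an unadjusted p under 0.05 (43.7% of all rows). By adjusted p alone 5 lay higher in ESC7 and 0 lower (19.3% and 12.7% of all rows). Among the 5 were TAGLN (15.5 ± 0.858 against 11.2 ± 1.07 FPKM, limma adjusted p = 0.00544) and ACTA2 (2.56 ± 0.656 against 1.16 ± 0.130, limma adjusted p = 0.00834). The part of such cells in the annexin values was not tested.

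SLC1A3, the glial glutamate and aspartate transporter (chromosome 16, 22924504 to 23009477), was at 37.5, 37.0 and 39.9 FPKM in ESC7 and 7.54, 8.78 and 7.41 in ESC11. The ratio of means was 4.82 with no overlap, a difference of 2.14 ± 0.07 (SE, adjusted p = 4.48e-06). ESC3 lay between at 15.3 ± 0.649 FPKM (SD). Of 21 tested amino acid transporters SLC1A3 was the 1 called, and 3 passed the adjusted p alone toward ESC7 and 7 toward ESC11 (19.3% and 12.7% of all rows). The neutral amino acid carriers SLC38A1 (19.2 ± 0.431 against 29.2 ± 0.343 FPKM) and SLC6A15 (6.51 ± 0.959 against 12.1 ± 1.13, SD) were among the latter, while the abundant SLC7A3 was at 183 ± 3.49 and 183 ± 6.83. S100A1, 1 of 7 tested S100 calcium-binding genes and on a row of 335 bp only, was at 26.9 ± 4.85 and 11.9 ± 2.71 FPKM (SD, difference 1.11, adjusted p = 0.00454); it fell under the minimum with library weights (0.99) and without ESC11 library 3 (0.95).

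Among genes lower in ESC7 that are not on the imprinted lists, KBTBD6, an adaptor of a ubiquitin ligase, was listed at 0 in all ESC7 libraries and at 12.8, 11.6 and 12.9 FPKM in ESC11 (adjusted p = 7.51e-07). It was also listed at 0 in ESC3. MX1, an interferon-induced antiviral GTPase, was at 1.83, 2.39 and 2.31 FPKM in ESC7 and 32.2, 33.9 and 32.9 in ESC11, a difference of -3.42 ± 0.08 (SE, adjusted p = 1.31e-06), with ESC3 at 23.3 ± 0.983 FPKM (SD). QTRT1, which inserts queuosine into tRNA, was at 0, 0.210 and 0.0393 FPKM in ESC7 and 8.66, 9.11 and 9.80 in ESC11 (-3.24 ± 0.10, SE). The centriole gene Ccdc67 was at 1.18, 0 and 0 FPKM against 6.10, 9.68 and 6.52. HPDL, a dioxygenase-like mitochondrial protein, was at 4.39 ± 0.366 and 23.8 ± 0.122 FPKM (SD), and FJX1, a secreted regulator related to four-jointed, at 1.99 ± 0.133 and 14.1 ± 0.961. ESC3 stood with ESC11 for QTRT1 (7.69 ± 0.780), Ccdc67 (6.53 ± 0.373) and HPDL (27.1 ± 0.990) and with ESC7 for FJX1 (1.91 ± 0.0695).

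Further called genes are named here after their values were seen. The fatty acid carriers FABP3 (35.7 ± 0.568 against 204 ± 45.2 FPKM, SD) and FABP5 (16.3 ± 1.67 against 34.7 ± 2.70) were lower in ESC7, and 2 rows named ABCA1, the cholesterol exporter, were higher (6.06 ± 0.422 against 1.75 ± 0.187, and 7.18 ± 1.30 against 2.63 ± 0.498). HMGA2, a chromatin protein of early embryos, was at 6.36 ± 1.47 and 17.5 ± 0.642 FPKM. OAT, the ornithine aminotransferase, was at 437 ± 5.50 and 193 ± 1.48, and the methyltransferase TPMT at 159 ± 5.42 and 61.3 ± 0.676; these are among the most abundant called genes and their spread between libraries was small.

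**Figure D4:**
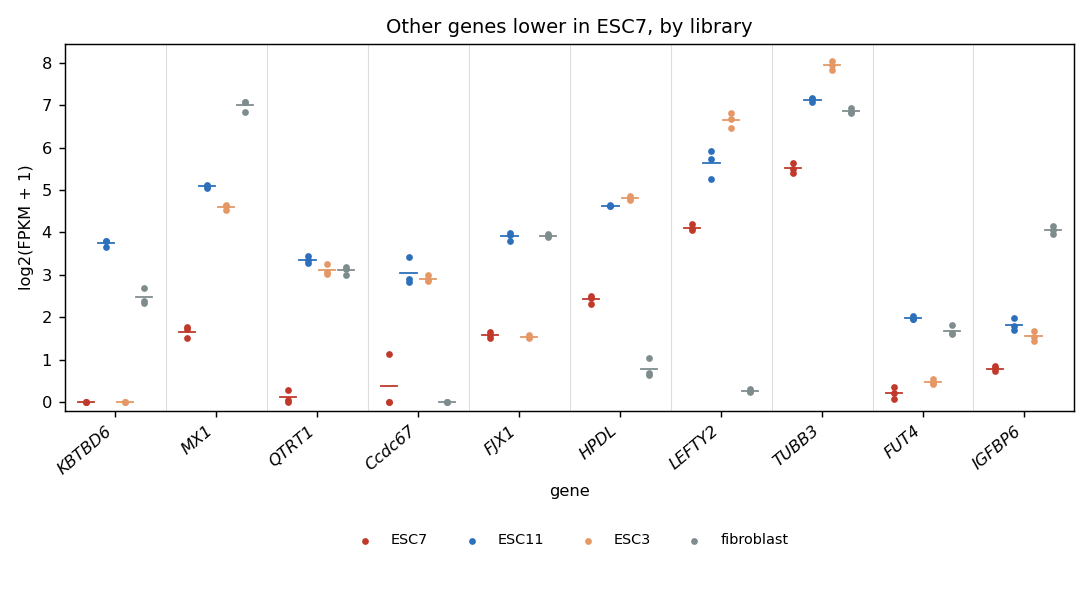
Values of 10 named genes lower in ESC7 that are not on the imprinted lists, with log2(FPKM + 1) on the vertical axis, a point for each library, a bar for the mean of 3 libraries and colours for the 4 groups. The 3 ESC7 points lie under the 3 ESC11 points in each gene, and ESC3 lies near ESC7 for KBTBD6, FJX1 and FUT4 and near or above ESC11 for QTRT1, HPDL, LEFTY2 and TUBB3.

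The core pluripotency genes were abundant in both lines. POU5F1 was at 794, 752 and 723 FPKM in ESC7 and 773, 792 and 761 in ESC11 (difference -0.04), and SOX2 at 190, 206 and 209 against 201, 214 and 209 (-0.04); the libraries of both lines overlapped. NANOG was at 77.3, 83.3 and 80.7 FPKM in ESC7 and 103, 101 and 102 in ESC11, a difference of -0.34 ± 0.04 (SE, adjusted p = 0.0012) that is under the minimum but without overlap. Of 16 tested core genes, 1 was called, DPPA4, a chromatin protein of pluripotent cells, at 7.48 ± 0.312 and 2.70 ± 0.549 FPKM (SD, 1.21 ± 0.11 SE). By adjusted p alone 1 core gene lay higher and 7 lower (19.3% and 12.7% of all rows), among them the repressor PRDM14 (28.4 ± 2.17 against 42.5 ± 2.24 FPKM) and LIN28B (51.2 ± 4.77 against 68.1 ± 3.29). Of the 7 tested naive pluripotency genes 0 were called and 3 had an unadjusted limma p under 0.05 (43.7% of all rows). By adjusted p alone 1 lay higher and 0 lower (19.3% and 12.7% of all rows). The 1 was FGF4, at 6.84 ± 0.966 and 3.43 ± 0.564 FPKM.

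Of 12 tested primed epiblast genes, LEFTY2 was called lower, on a row that spans 39301 bp and carries no Ensembl identifier. LEFTY2, a feedback inhibitor of NODAL, was at 15.5, 17.2 and 16.3 FPKM in ESC7 and 52.4, 59.0 and 37.1 in ESC11, a difference of -1.52 ± 0.16 (SE, adjusted p = 6.79e-04), and at 99.7 ± 11.9 in ESC3 (SD). The homeobox factor OTX2 was at 38.4 ± 2.14 and 61.2 ± 1.73 FPKM (SD), a difference of -0.66 (adjusted p = 2.23e-04) under the minimum. Within the 14 tested NODAL and activin pathway genes LEFTY2 was again the 1 called; SMAD7, an inhibitor induced by the pathway, was at 5.36 ± 0.593 and 9.07 ± 1.06 FPKM, the receptor ACVR2B at 18.1 ± 0.539 and 20.3 ± 0.188, and the inhibitor FST at 146 ± 6.47 and 168 ± 6.80. By adjusted p alone 5 of the 14 lay lower and 0 higher, against 12.7% and 19.3% of all rows. LEFTY2 was left out of a fit of only rows with an Ensembl identifier, chosen after seeing the data. There 0 members of either list were called lower.

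TUBB3, a tubulin of neurons that other cells can also express, was at 41.1, 44.4 and 48.5 FPKM in ESC7 and 141, 143 and 133 in ESC11, a difference of -1.62 ± 0.06 (SE, adjusted p = 1.13e-05); ESC3 was at 245 ± 17.4 (SD). It was the 1 called of 5 tested neural genes, and NES, a neural progenitor filament, was at 6.48 ± 0.295 and 5.57 ± 0.366 FPKM. In bulk RNA, fewer cells of a type and less RNA per cell cannot be told apart. Of 5 tested endoderm genes 0 were called with limma and 3 had an unadjusted p under 0.05 (43.7% of all rows). By adjusted p alone 2 lay higher and 0 lower (19.3% and 12.7% of all rows). The 2 were GATA6 (2.57 ± 0.0775 against 1.05 ± 0.102 FPKM) and FOXA1 (10.7 ± 0.871 against 6.29 ± 0.126). The mesenchymal regulator TWIST2 was called at 4.78 ± 1.10 and 1.12 ± 0.0554 FPKM (SD, 1.43 ± 0.14 SE), 1 of 6 in its list. Of 17 tested fibroblast and matrix genes 0 were called with limma, 6 had an unadjusted p under 0.05 and 4 passed the adjusted p alone (3 higher, 1 lower; 32.0% of all rows), including COL5A2 (2.93 ± 0.185 against 1.32 ± 0.119 FPKM), while the filament gene VIM (55.3 ± 5.86 and 50.9 ± 2.54) and the collagen gene COL1A1 (difference 0.16) overlapped between lines.

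Few genes of other signalling lists reached the minimum difference. Among 24 tested FGF receptors and FGF/MEK feedback genes, 14 had an unadjusted p under 0.05, 8 lay higher and 3 lower by adjusted p alone (19.3% and 12.7% of all rows), and 1 was called, SHISA2, a protein that holds FGF and WNT receptors back in the endoplasmic reticulum, at 90.9, 100 and 99.8 FPKM in ESC7 and 26.0, 29.4 and 31.0 in ESC11 (1.72 ± 0.07 SE, adjusted p = 1.53e-05). The feedback genes SPRY2 (50.7 ± 4.07 and 50.4 ± 2.44 FPKM, SD) and DUSP6 (86.1 ± 2.24 and 87.3 ± 2.76) overlapped, and DUSP4 (73.3 ± 1.24 and 52.8 ± 1.25) lay higher in ESC7 by 0.47. Of 24 tested WNT genes 0 were called with limma, 8 had an unadjusted p under 0.05 and 7 passed the adjusted p alone (5 higher, 2 lower; 32.0% of all rows), with CTNNB1, beta-catenin, at 511 ± 17.7 and 476 ± 6.78 FPKM. Of 15 tested BMP genes 0 were called with limma, 7 had an unadjusted p under 0.05 and 6 passed the adjusted p alone (4 higher, 2 lower; 32.0% of all rows), among them the antagonist CHRD at 22.4 ± 0.358 and 16.1 ± 1.02. Of 14 tested LIF, IL6 and STAT3 genes 0 were called with limma and 6 had an unadjusted p under 0.05. By adjusted p alone 4 lay higher and 0 lower, against 19.3% and 12.7% of all rows. These 4 lay toward ESC7: the shared receptor IL6ST (66.5 ± 3.91 against 37.2 ± 0.335), LIFR (3.56 ± 0.201 against 1.85 ± 0.0940), the cytokine IL6 and the kinase JAK1. IGFBP6, an IGF2-binding protein, was the 1 called of 14 tested IGF axis genes at 0.727 ± 0.0668 and 2.55 ± 0.350 FPKM (-1.04), and without ESC11 library 2 its difference was -0.96, under the minimum.

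The sort antigen SSEA1 is a fucosylated sugar, and FUT4, 1 of the enzymes that can make it, was at 0.0531, 0.150 and 0.278 FPKM in ESC7 and 3.11, 2.91 and 2.88 in ESC11, a difference of -1.78 ± 0.09 (SE, adjusted p = 4.32e-05). ESC3 was also low at 0.382 ± 0.0621 (SD). FUT9, the other main enzyme of this step, was at 3.90 ± 0.400 and 4.23 ± 0.635 FPKM and overlapped. FUT4 was the 1 called of 20 tested SSEA1 synthesis and stem cell surface genes. SSEA1, the product of this step, was the antigen used to sort the ESCs.

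Interferon-stimulated genes and RNA sensors held calls in both directions. Besides MX1, lower in ESC7, the 17 tested members held 1 called higher, OAS2, a sensor of double-stranded RNA, at 10.4 ± 1.21 and 4.26 ± 0.197 FPKM (SD, 1.11 ± 0.09 SE, adjusted p = 2.27e-04). By adjusted p alone 8 lay higher and 2 lower (19.3% and 12.7% of all rows), and their median was 0.25; the RNA-dependent kinase EIF2AK2 was at 26.3 ± 1.19 and 13.2 ± 0.656 FPKM (0.94) and USP18 at 15.6 ± 0.875 and 8.54 ± 0.508 (0.80). A second, lower row named IFITM1 was called (11.7 ± 1.68 against 3.07 ± 0.505), and the main IFITM1 row was at 142 ± 7.29 and 94.4 ± 3.09. Of 7 tested MHC class I presentation genes 0 were called with limma and 5 had an unadjusted p under 0.05 (43.7% of all rows). By adjusted p alone 3 lay toward ESC7 and 2 toward ESC11 (19.3% and 12.7% of all rows). The 3 were B2M (44.8 ± 5.62 against 26.6 ± 1.85 FPKM), SLA-8 and ERAP1, which was just under the minimum. The rows named TAP on chromosome 7 (31.6 ± 0.917 against 68.2 ± 2.66) and HLA-DOB beside it (1.51 ± 0.440 against 6.32 ± 0.426) were called lower; they are on none of the lists as such and were named after their values were seen.

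The 17 tested p53 target genes held 1 called member, TNFRSF10B, a death receptor of TRAIL, at 12.1, 7.84 and 9.76 FPKM in ESC7 and 0.547, 0.491 and 0.284 in ESC11 (2.91 ± 0.15 SE, adjusted p = 4.18e-05). Other rows of this symbol had differences of 1.74 (called) and 0.20 (not called). The row given lies within RHOBTB2, on the opposite strand and called lower (-1.09). It also lies within the row named TNFRSF10D, on the same strand and not called (0.58). Reads of these rows may therefore not be separate. By adjusted p alone 7 of the 17 lay higher and 0 lower, against 19.3% and 12.7% of all rows, among them the p53 ligase MDM2 (79.6 ± 1.18 against 54.0 ± 1.74 FPKM) and TP53INP1 (26.3 ± 1.18 against 17.4 ± 0.875), while CDKN1A was at 71.7 ± 6.08 and 62.8 ± 0.661 (adjusted p = 0.0595). The list median was 0.06, close to that of all rows. Of 22 tested epithelial junction and keratin genes 0 were called with limma, 20 had an unadjusted p under 0.05 (43.7% of all rows), and by adjusted p alone 13 lay higher and 1 lower on the deposited scale (10 and 3 after median-ratio scaling), against 19.3% and 12.7% of all rows. CDH1, E-cadherin, was at 541 ± 38.5 and 409 ± 10.6 FPKM, CLDN3 at 235 ± 9.98 and 138 ± 8.49, and CLDN10 at 50.6 ± 5.03 and 25.2 ± 1.62 (0.97).

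Differences of cell cycle and metabolic genes were under the minimum. Of 28 tested S and M phase genes 0 were called with limma, 18 had an unadjusted p under 0.05, and by adjusted p alone 1 lay higher and 12 lower, against 19.3% and 12.7% of all rows, with a median of -0.14; MCM3 of the replicative helicase was at 60.0 ± 1.68 and 75.9 ± 1.04 FPKM and MKI67 at 25.6 ± 0.861 and 29.5 ± 0.891. Of 18 immediate early and heat shock genes 0 were called with limma, 8 had an unadjusted p under 0.05 and 7 passed the adjusted p alone, all lower (12.7% of all rows), including JUN (20.7 ± 1.82 against 37.0 ± 5.77). Of 23 glycolysis genes 0 were called with limma, 12 had an unadjusted p under 0.05 and 10 passed the adjusted p alone (3 higher, 7 lower; 32.0% of all rows), including LDHA at 92.6 ± 4.82 and 134 ± 0.631. Of 31 tested nuclear genes of the respiratory chain 0 were called with limma, 9 had an unadjusted p under 0.05 and 7 passed the adjusted p alone (5 higher, 2 lower; 32.0% of all rows), and their median was 0.04. On chromosome X, 6 of 409 tested rows were higher and 3 lower, with a median of 0.01. Of 16 tested X-linked genes with a Y partner or broad expression 0 were called with limma. An unadjusted limma p under 0.05 was found for 6 (43.7% of all rows). The adjusted p alone placed 0 higher and 5 lower, against 19.3% and 12.7% of all rows. DDX3X, an RNA helicase gene, was at 254 ± 6.43 and 318 ± 3.33 FPKM. Over all the lists with at least 3 tested members, 38 in number, 23 held no called gene, 13 held 1 and 1 held 2. The paternally expressed list held 9, where 1.65% of all rows were called, and most of the 9 passed the filter on low values through ESC11.

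**Figure D5:**
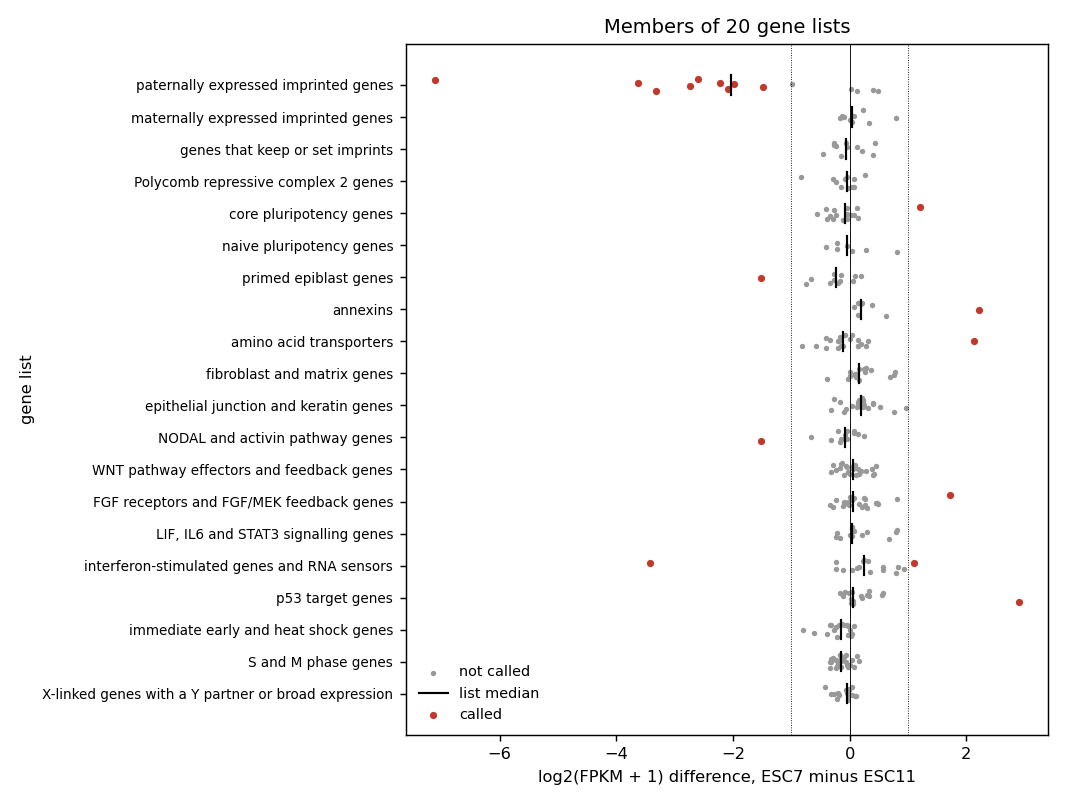
Differences in log2(FPKM + 1), ESC7 minus ESC11, on the horizontal axis for the tested members of 20 gene lists; red points are called, grey points are not, black bars are list medians and dotted lines mark a difference of 1 either way. The paternally expressed genes spread from -7.11 to 0.49 with a median of -2.04, and the other medians lie between -0.23 and 0.25 on the deposited scale.

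Some called genes lie side by side. Of the 205, 69 fell in 28 groups whose neighbours are at most 1 Mb apart, and 20 of the groups held calls of 1 direction. Stretches here and below run from their first to their last called row, so this choice by itself raises their share of called rows. The longest run was on chromosome 9 from 3961589 to 5251631, where 7 of 12 tested rows were called higher in ESC7 (1.02% of all rows). Of the 7, 4 are odorant receptor rows at or near 0 in ESC11 that passed the filter on low values only through ESC7, so the count and its direction are partly set by the filter. The run also holds the sphingomyelinase SMPD1 (6.07 ± 0.170 against 2.35 ± 0.294 FPKM, SD), the gastrin receptor CCKBR (5.42 ± 0.496 against 0.950 ± 0.567) and TRIM6, a ubiquitin ligase (12.8 ± 0.285 against 3.00 ± 0.293). The odorant receptor rows are OR52H1, OR52D1 and 2 rows of OR51Q1. The shorter OR51Q1 row lies inside the longer one on the same strand, so their reads may not be separate. Chromosome 9 as a whole had 17 rows called higher and 4 lower among 599 tested (3.51%), and the other chromosomes had 0.494% to 2.20%.

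On chromosome 2 from 27633860 to 27954885 all 3 tested rows were lower: TRIM44 (0.434 ± 0.0256 against 4.77 ± 0.172 FPKM, SD), FJX1 and PAMR1 (0.461 ± 0.0639 against 5.09 ± 0.454). FJX1 and PAMR1 share bases on opposite strands, and whether the counting used strand is not given in the sources used here, so their reads may not be separate. Further along chromosome 2, PCDHB17, PCDHGA2 and PCDHGA10 of the clustered protocadherins were called higher among 11 tested rows (1.02% of all rows). Of the 11, 10 had a difference above 0. PCDHB17 lies inside PCDHB5 (0.91), PCDHGA2 inside PCDHGA1 (-0.02) and PCDHGA10 inside PCDHGA7 (0.82). These longer rows are on the same strand and were not called, so the reads may not be separate. On chromosome 5 from 74809226 to 75389474, 2 MUCAP_PIG rows and an unnamed row were higher while CNTN1, which overlaps one of them on the opposite strand, was lower (1.24 ± 0.238 against 3.51 ± 0.224). Of the called rows 71 overlap another row of the table, as do 4111 of all tested rows. When all overlapping rows were left out before the fit, 134 were called, and 4 paternally expressed genes were called lower. The 71 called rows that overlap another, LEFTY2, TUBB3 and TNFRSF10B among them, were left out and so were not tested there. The lower counts by themselves are therefore not a measure of lost calls.

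Of 1223 symbols on several tested rows, 2 were called in both directions. FARP1 was higher on chromosome 11 (9.28 ± 0.303 against 0.668 ± 0.0710 FPKM, SD) and lower on scaffold GL893383.2 (listed at 0 against 5.56 ± 0.455). TSPAN6 was higher on chromosome X (92.6 ± 5.47 against 45.6 ± 3.82) and lower on a 1078 bp row of chromosome 13 (4.45 ± 0.793 against 40.7 ± 0.923). Reads that fit both copies could be split between such rows, so these symbols are uncertain. Among the 14 tested rows under 300 bp, fitted apart, 1 was called (7.14%): MFSD5, a transporter-like gene on a 264 bp row of chromosome 5 (18858056 to 18858319), was at 34.9, 33.0 and 43.8 FPKM in ESC7 and listed at 0 in all other libraries (adjusted p = 4.42e-04).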

How the data were processed

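RNA of 3 libraries each of ESC7, ESC11, ESC3 and fetal fibroblasts was polyA-selected and read as paired ends of 100 bp, per the labels' protocols. The authors deposited FPKM values per gene row; STAR 2.4.0b and Cufflinks 2.1.1 appear, with no role, in the submitters' processing notes, which also give Sscrofa10.2 as the build. Use of strand and treatment of reads that map to several places are not given in the sources used here. Values were taken as log2(FPKM + 1), and rows with at least 1 FPKM in at least 3 of the 6 libraries were fitted with limma 3.58.1 in R 4.3.3 (empirical Bayes with an intensity trend, Benjamini-Hochberg adjustment over all tested rows); rows spanning under 300 bp were fitted apart. A call needs an adjusted p under 0.05 and a difference of at least 1. ESC7 minus ESC3 was fitted over the 9 ESC libraries. Python 3.11.15 with numpy 2.4.6, pandas 2.3.3 and matplotlib 3.10.9 served for tables and figures, and the fit was tested on simulated data. Absolute depth is unknown, so no counting interval is given.

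The genes named are up to 12 called rows in each direction with the largest difference, a mean of at least 5 FPKM in the higher line and no overlap between lines, up to 4 called members of each list, a fixed set (SNRPN, MEST, ANXA1, SLC1A3, POU5F1, SOX2, NANOG, SNRPB) and up to 3 called short rows. A symbol on several rows is given by the row with the highest mean. Other genes with values were named after their values were seen. The members and lists were chosen with earlier results of these data known. Of the tested rows 11681 carry an Ensembl identifier, and 7806 matched a symbol in the gene name table. Libraries with the same number did not deviate together (correlations 0.032, -0.023 and 0.092), and no pair of libraries held identical values. Alternatives covered the pseudocount, the filter, scaling, the samples in the fit, library weights, each library left out, row overlap and the Ensembl identifier.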

Additional observations from a re-analysis of the deposited data

Results flagged for a closer look

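For 18 of the 39 named genes, the difference of ESC7 from ESC3 was itself called by limma over the 9 ESC libraries, against 2.45% of all rows. Most of the 39 were chosen for an extreme value in ESC7, and both differences use the same ESC7 libraries, so nothing is read from the count. All values here are log2(FPKM + 1) differences, ESC7 minus ESC3. Among genes higher in ESC7 than in ESC11, the difference was 6.47 for AIRE, 4.44 for OR51Q1, 4.14 for ANXA1, 3.69 for MUCAP_PIG, 3.23 for GAS2, 2.80 for IGSF5, 1.84 for S100A1, 1.27 for TNFRSF10B and 1.27 for SLC1A3. ANXA1 in ESC3 was below ESC11, and SLC1A3 in ESC3 lay between the other lines. VTI1A had -1.46, since ESC3 was above ESC7. Among genes lower in ESC7 than in ESC11, it was -3.81 for MAGEL2, -3.01 for QTRT1, -2.94 for MX1, -2.54 for Ccdc67, -2.53 for LEFTY2, -2.43 for TUBB3, -2.38 for HPDL and -2.22 for MEST. MAGEL2 and MEST are thus paternally expressed genes at which ESC3, labelled parthenogenetic, was at or above the level of ESC11. The cause was not tested.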

How the results depend on the processing

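The number of called rows (205, with 126 higher and 79 lower in ESC7) depended most on scaling and on the minimum difference. Scaling each library to the same FPKM sum gave 4708 (38 higher, 4670 lower), and dropping the minimum difference gave 3967 (2393 and 1574). A pseudocount of 0.1 gave 364 (239 and 125), a pseudocount of 5 gave 69 (40 and 29), and a filter at 5 FPKM gave 124 (75 and 49). Rows that overlap no other row, an alternative chosen after seeing the data, gave 134, of which 48 were lower. The 71 called rows that overlap another were left out before that fit. Between ESC7 and ESC3 the count of 304 became 553, 102, 189, 495 and 5790 with a pseudocount of 0.1, a pseudocount of 5, the filter at 5 FPKM, the same sum and no minimum difference. Leaving out each library in turn gave 199 to 214 rows (119 to 133 higher, 77 to 87 lower) and 1 to 2 short rows, with 2 without ESC7 library 2 and without ESC11 library 1. Quantile normalization gave 206 (114 and 92) and median-ratio scaling 199 (117 and 82).

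With the replicate number as a replicate block, 207 rows were called (126 higher, 81 lower), 306 between ESC7 and ESC3, and 1 short row; the numbers did not pair the libraries. Over the 39 named genes and all alternatives, no direction reversed; 930 values kept their side of the call, 17 lost it and 5 gained it. The losses were at a pseudocount of 5 (CLDN23 0.95, S100A1 0.91, OAS2 0.73, DPPA4 0.70, TWIST2 0.67, FUT4 -0.63, IGFBP6 -0.40), at the same sum (DPPA4, S100A1, TWIST2, SHISA2, OAS2) and at the settings given for GAS2, S100A1 and IGFBP6. At the same sum POU5F1 (-1.08), SOX2 (-1.08), NANOG (-1.37) and SNRPB (-1.23) were called lower. Low genes are limited by the unknown depth.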

Other observations

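Rows whose status is neither KNOWN nor NEW_AS were left out of the comparison; 8.16% of those tested carry an Ensembl gene identifier. Of 4388 tested ones 339 were called (7.73%; 275 higher, 64 lower), and 120 of these span under 300 bp. The rows named here were chosen after their values were seen. A row named PEG10, a retrotransposon-derived imprinted gene beside SGCE (chromosome 9, 81651789 to 81655368), was at 0, 0 and 0.939 FPKM in ESC7 and 80.4, 79.2 and 85.0 in ESC11, and averaged 0.245 in ESC3 and 1442 in fibroblasts. Beside SNRPN on scaffold GL896379.1, a row from 7595 to 19851 averaged 0.326 FPKM in ESC7 and 310 in ESC11. Near MAGEL2 on chromosome 1, the row from 158313086 to 158313825 averaged 0.938 FPKM in ESC7, 20.9 in ESC11 and 35.0 in ESC3, whereas the row from 157998693 to 158011272 was listed at 0 in ESC7 and averaged 17.5 in ESC11 and 0.00894 in ESC3. A row named MUC19, a gel-forming mucin (chromosome 5, 74708072 to 74743185), averaged 19.1 FPKM in ESC7 and 0.0450 in ESC11 and lies beside the MUCAP_PIG rows. Among annotated rows, HOXC8 was the 1 tested HOX gene of 32 in the table, with a difference of 1.12 (adjusted p = 0.0913 from limma).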
